A study of Mus musculus with 4 samples.

Results

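The Cdkn1c Npy Plpp3 Pdpn cells are the cultured bone marrow (BM) macrophages in which at least 3 of the genes Cdkn1c, Npy, Plpp3 and Pdpn were detected with 1 or more UMIs (unique molecular identifiers, each counting 1 captured mRNA molecule). Barcodes counted as cells from 200 genes and 1000 UMIs upward, with no more than 10% of UMIs mitochondrial, and 2232 of 36794 cells met the rule. They are called members here, and the other 34562 cells are called remaining cells. The 4 genes were chosen with earlier results of these data known, including their rise in the efferocytic libraries. Their levels, their shares in the members and the share of members in each library are therefore given as a description, with no test.

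BM macrophages were grown with M-CSF from the marrow of male C57BL/6J mice aged 4 to 6 weeks, with no genetic change in any group. In 2 experiments (Exp. 1 and Exp. 2), they were cultured for 16 to 18 h with RM1 cells, a prostate cancer line made in C57BL/6J mice with Ras and Myc, which had been killed by UV light and labelled with the dye CFSE. Macrophages that were positive for the surface protein F4/80 and for CFSE, because they held RM1 material, were sorted as efferocytic. F4/80+ macrophages from cultures without cancer cells were sorted as non-efferocytic. The study used the comparison to ask how engulfment of apoptotic cancer cells changes signaling in BM macrophages. A hypoxia response was among its outcomes, and the study then followed HIF-1α. Each sort gave 1 single-cell 3′ RNA library, and the libraries are called N1 and N2 (non-efferocytic, Exp. 1 and Exp. 2) and E1 and E2 (efferocytic, Exp. 1 and Exp. 2). Values for several libraries are in the order N1, E1, N2 and E2 throughout. The labels do not say whether the experiments used separate mice, so p-values extend to these libraries only, with n = 2 libraries per group. The p-values and standard errors (SE) of the edgeR test rest on a spread estimated partly over all genes together. They can therefore understate how far the libraries differ for a single gene. Between efferocytic and non-efferocytic members, the spread came almost wholly from all genes together. Very small adjusted p-values there do not measure how far the libraries differ. The sort has limits as a model: CFSE marks dye inside or on a macrophage at the time of the sort, and the non-efferocytic cells had no cancer cells in their dish.

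Efferocytosis is the engulfment of dying cells, after which a macrophage has to break down and store or export the lipid, sterol and protein of its meal. Of the 4 genes, Cdkn1c encodes a cyclin-dependent kinase inhibitor that is expressed from the maternal copy of an imprinted region, and Npy encodes neuropeptide Y, a secreted peptide best known from neurons. Plpp3 encodes a membrane enzyme that removes phosphate from lysophosphatidic acid and sphingosine 1-phosphate at the cell surface, and Pdpn encodes podoplanin, a membrane glycoprotein that binds the platelet receptor CLEC-2 and is also carried by inflammatory macrophages and stromal cells.

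The genes lie apart in the mouse genome (GRCm38, GENCODE positions). Cdkn1c (ENSMUSG00000037664) is at chr7:143458339-143461050 on the minus strand and Npy (ENSMUSG00000029819) at chr6:49822710-49829507 on the plus strand. Plpp3 (ENSMUSG00000028517) is at chr4:105157347-105232764 on the plus strand, and Pdpn (ENSMUSG00000028583) is on the same chromosome at chr4:143267431-143299564 on the minus strand. The 250 bases before the start site are shown for the 3 genes with an entry in the RefSeq promoter table (GRCm38.p6), since these are the genes that were detected together and a reader can compare what their promoters share. Capitals mark the only matches found, of the hypoxia response element core.
Plpp3, chr4:105157097-105157346 (+): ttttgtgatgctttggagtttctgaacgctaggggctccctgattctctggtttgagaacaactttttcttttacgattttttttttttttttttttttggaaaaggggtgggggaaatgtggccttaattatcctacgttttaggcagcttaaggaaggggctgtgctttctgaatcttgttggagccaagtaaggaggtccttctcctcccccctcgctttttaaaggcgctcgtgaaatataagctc
Pdpn, chr4:143299565-143299814 (-): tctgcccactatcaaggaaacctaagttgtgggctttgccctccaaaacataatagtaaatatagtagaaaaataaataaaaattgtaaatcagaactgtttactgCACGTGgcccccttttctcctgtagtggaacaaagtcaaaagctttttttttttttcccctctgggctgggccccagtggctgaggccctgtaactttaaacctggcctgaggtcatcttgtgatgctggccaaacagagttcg
Npy, chr6:49822460-49822709 (+): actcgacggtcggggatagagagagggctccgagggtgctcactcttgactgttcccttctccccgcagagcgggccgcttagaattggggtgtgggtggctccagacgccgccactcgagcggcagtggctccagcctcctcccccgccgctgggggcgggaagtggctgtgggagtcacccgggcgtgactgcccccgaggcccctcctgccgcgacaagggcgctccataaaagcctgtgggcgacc
The windows were searched on both strands for 4 motifs: the hypoxia response element core ACGTG, the AP-1 site TGANTCA, the STAT site TTCNNNGAA and the TATA box TATAAA. Only the Pdpn window held a match, to ACGTG on both strands, 143 and 144 bases before the start site, which overlap as the palindrome CACGTG. Of 32851 mouse promoters of the same length, 16.6% held ACGTG, 6.75% TGANTCA, 7.02% TTCNNNGAA and 12.4% TATAAA. A match is a description of the letters and not a bound site. The windows differed in composition, with 42.4% GC in Plpp3, 43.2% in Pdpn and 69.2% in Npy.

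The libraries held 8280, 6695, 13411 and 8408 cells with 101216659, 124997895, 138349389 and 155224183 UMIs. N2 and E2 shared 118 cell barcodes where cell numbers alone give 16.6, against 14 to 23 in the other 5 pairs of libraries (8.16 to 16.3 from cell numbers), and 0, 2, 3 and 13 members lay on a shared barcode. The cells were not all macrophages. Cells with UMIs for at least 5 markers of another cell type, mainly of neutrophils and of fibroblasts and stroma, numbered 112, 43, 238 and 55, of which 4, 2, 7 and 4 were members. The main counts and the results that rest most on them are given with and without these cells, a comparison chosen after seeing the data.

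Members were a larger share of the efferocytic libraries in both experiments. The choice of the 4 genes, made with their rise there known, favored this, so the shares below are not independent evidence of a rise. They made up 1.00% of the cells of N1 (83 of 8280; exact 95% interval 0.799 to 1.24%), 8.22% of E1 (550 of 6695; 7.57 to 8.90%), 1.78% of N2 (239 of 13411; 1.56 to 2.02%) and 16.2% of E2 (1360 of 8408; 15.4 to 17.0%). The intervals cover counting error only. E2 had the highest share and N1 the lowest, and both efferocytic libraries lay above both non-efferocytic libraries. Detection of 3 genes favors cells with many UMIs, and efferocytic cells had more of them: the median was 27112, 27573.5, 20463 and 23980 UMIs in members and 11087, 16458, 9475.5 and 16581.5 in remaining cells. Among cells of 20000 to 30000 UMIs the share was 4.20% in N1 (32 of 762; 2.89 to 5.88%), 10.4% in E1 (178 of 1714; 8.98 to 11.9%), 8.40% in N2 (83 of 988; 6.75 to 10.3%) and 23.4% in E2 (537 of 2298; 21.7 to 25.2%). At this matched depth the efferocytic libraries were still above their own experiment's non-efferocytic library, while the intervals of E1 and N2 overlapped. After thinning every cell to 5000 UMIs, the same order was seen at lower shares of 0.223%, 1.50%, 0.390% and 3.80% (16 of 7181, 92 of 6151, 39 of 10007 and 300 of 7903 cells), where shallower cells were left out (1099, 544, 3404 and 505 cells). Predicted doublets made up 10.8%, 12.2%, 18.0% and 12.9% of members, against 6.62%, 5.36%, 10.7% and 6.73% of all cells. They were thus more frequent among members in each library. Leaving out predicted doublets gave 0.957%, 7.62%, 1.64% and 15.1%, and leaving out cells of other types gave 0.967%, 8.24%, 1.76% and 16.2%.

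**Figure D1:**
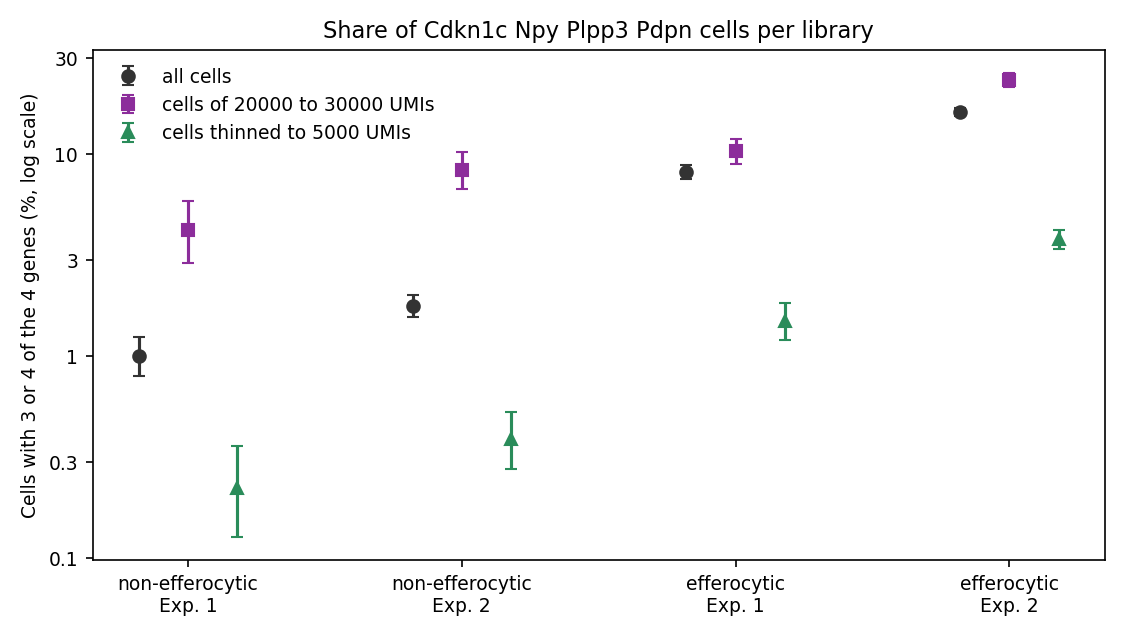
Share of cells with at least 3 of the 4 genes detected, in percent on a log axis, for each of the 4 libraries. Circles are all cells, squares cells of 20000 to 30000 UMIs and triangles cells thinned to 5000 UMIs, with exact 95% intervals as bars. All cells run from 1.00% in the non-efferocytic library of Exp. 1 to 16.2% in the efferocytic library of Exp. 2, and in each experiment the efferocytic library is the higher at every depth shown.

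Plotted by depth, the share of members was thus lowest where every cell was cut to 5000 UMIs and highest among deep cells, with the efferocytic library above the non-efferocytic library of the same experiment each time. Npy was detected in 17.9%, 51.9%, 23.7% and 69.0% of all cells, Plpp3 in 4.83%, 21.5%, 6.96% and 33.0%, Pdpn in 4.35%, 13.5%, 6.09% and 22.7%, and Cdkn1c in 4.69%, 12.9%, 4.77% and 17.7%. Each gene was thus more widely detected in the efferocytic library of each experiment. In the members, Npy was detected in 96.4%, 98.5%, 97.5% and 98.9%, Plpp3 in 73.5%, 85.5%, 87.0% and 86.5%, Pdpn in 85.5%, 71.1%, 80.8% and 78.5%, and Cdkn1c in 62.7%, 60.7%, 43.1% and 57.2%. Most members therefore qualified through Npy, and the combination Npy, Plpp3 and Pdpn without Cdkn1c was the most frequent in every library, with 37.3%, 39.3%, 56.9% and 42.8% of members. All 4 genes were detected in 18.1%, 15.8%, 8.37% and 21.1% of members. Cdkn1c, the first gene of the name, was thus without a UMI in 37.3% to 56.9% of the members.

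Droplet libraries carry free RNA, and cells that should lack the genes served as the background. In neutrophil cells (30, 17, 55 and 19 cells, median 11576.5, 11409, 10740 and 19281 UMIs, against 27112, 27573.5, 20463 and 23980 in members), Npy was seen in 0, 1, 4 and 1 cells, Cdkn1c in 0, 0, 1 and 0, Plpp3 in none and Pdpn in 1, 0, 0 and 0. With 0 cells, shares of up to 10.0%, 17.6%, 5.45% and 15.8% remain possible for cells with a UMI, so the background was not tightly bounded at this number of cells. In barcodes of at most 100 UMIs, Cdkn1c reached 136, 158, 9.60 and 40.3 CPM (UMIs per 1000000 UMIs). Over all remaining cells Cdkn1c had 4.75, 17.1, 6.75 and 18.8 CPM. Plpp3 had 37.7, 46.1, 12.8 and 29.7 CPM in these barcodes against 4.48, 14.5, 7.29 and 24.3 CPM in the remaining cells, and Pdpn 7.12, 15.2, 15.4 and 31.4 CPM against 4.79, 7.79, 7.10 and 12.96 CPM. The free-RNA level was thus above that of the remaining cells and below that of the members for these 3 genes in each library. Npy had 28.9, 78.8, 57.0 and 184 CPM against 33.6, 120, 53.1 and 203 CPM, and was above the remaining cells in N2 alone. The part of free RNA in the detection of the 4 genes was not tested.

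The levels of the 4 genes followed from the rule and are described without a test. Cdkn1c had 326, 231, 138 and 224 CPM in members and 2.86, 15.3, 9.03 and 24.5 CPM in remaining cells of equal depth, each the remaining cell of the same library with the nearest total UMIs within 5%. Npy had 292, 331, 319 and 488 CPM in members and 80.2, 137, 62.6 and 230 CPM in those cells. Npy was thus also frequent outside the members, above all in E2. Plpp3 had 63.5, 66.8, 74.8 and 92.7 CPM in members against 7.16, 17.7, 10.2 and 24.3 CPM, and Pdpn 106, 60.4, 87.6 and 84.8 CPM against 7.16, 8.16, 12.2 and 13.4 CPM. For all 4 genes the members of every library lay above the remaining cells of every library. Among members, neither Pdpn nor Cdkn1c was higher in both efferocytic libraries, while Npy and Plpp3 were higher in E1 and E2 than in the non-efferocytic library of the same experiment.

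**Figure D2:**
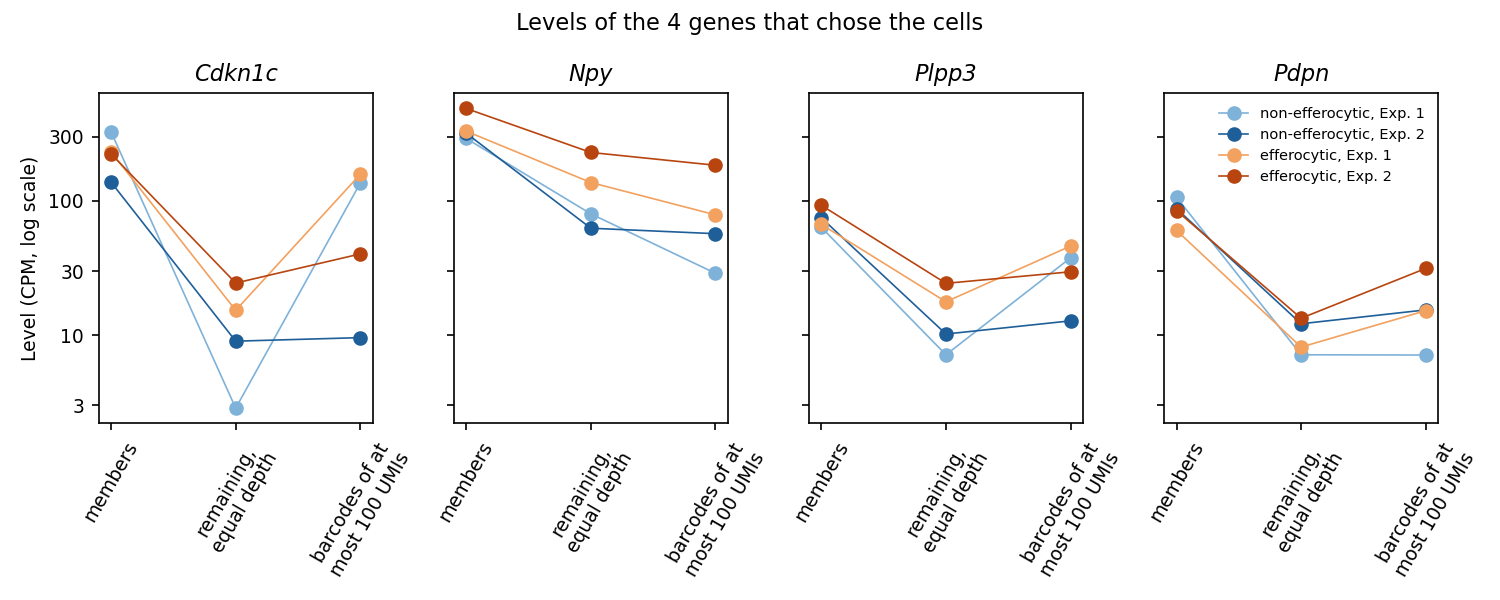
Level of Cdkn1c, Npy, Plpp3 and Pdpn in CPM (log axis) in members, in remaining cells of equal depth and in barcodes of at most 100 UMIs. Each point is 1 library and lines join the points of 1 library. Members lie at the top of every panel, and Cdkn1c in barcodes of at most 100 UMIs stands at 136 and 158 CPM in Exp. 1.

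The plot of levels shows the members at the top of each panel and the free-RNA level of Cdkn1c standing apart between the experiments. Just outside the rule, cells with exactly 2 of the 4 genes (315, 1225, 798 and 2255 cells) had 24.3, 52.5, 38.3 and 42.9 CPM of Cdkn1c. Cells with exactly 3 (68, 463, 219 and 1073 cells) had 320, 176, 113 and 135 CPM. For Npy the same step was from 156, 213, 166 and 299 CPM to 238, 321, 307 and 451 CPM. As a ratio, the step at the threshold was wider for Cdkn1c than for Npy in each library, whereas as a difference in CPM it was wider for Npy in N2 and E2. The rule sets both steps.

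A gene's level in cells chosen by the other 3 genes was not fixed by the rule in the same way. Cells with at least 2 of Npy, Plpp3 and Pdpn (301, 1403, 806 and 3039 cells) had 111, 102, 47.5 and 113 CPM of Cdkn1c, and all other cells 4.96, 21.1, 7.29 and 26.3 CPM. Pdpn had 41.3, 26.7, 34.0 and 44.3 CPM in cells chosen by the other genes and 4.97, 9.63, 7.57 and 17.7 CPM elsewhere. Each gene was thus higher where the others were detected. With cells matched for depth, the log2 ratios were 5.05, 2.21, 2.37 and 1.82 for Cdkn1c, 2.55, 1.55, 1.58 and 1.29 for Pdpn, 1.76, 1.03, 1.58 and 0.88 for Plpp3 and 1.59, 0.96, 1.77 and 0.90 for Npy. All 16 ratios were above 0, and for each gene both non-efferocytic libraries had larger ratios than both efferocytic libraries. In cells thinned to 5000 UMIs, Pdpn was seen in 6.77%, 8.72%, 7.97% and 13.6% of cells with an Npy UMI and in 1.61%, 3.85%, 2.62% and 5.99% of cells without. The 4 genes were chosen from these data because they go together, so this is a description and not independent evidence of it.

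The members also lay near each other by genes that the rule did not use. On 20 principal components of 5000 variable genes without the 4 genes, in cells thinned to 5000 UMIs, members made up 10.7%, 26.2%, 18.3% and 37.4% of the 20 nearest neighbors of a member. Among the neighbors of a remaining cell they made up 0.847%, 8.51%, 1.95% and 14.3%, and over all these cells 1.13%, 8.93%, 2.36% and 17.1%. These baselines were not matched for the depth of the cells before thinning. Members made up 4.20%, 10.4%, 8.40% and 23.4% of cells of 20000 to 30000 UMIs, nearer to the shares among neighbors of a member but still below them. The members were thus gathered but not alone in their region, since most neighbors of a member did not meet the rule in any library.

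Cdkn1c was spread very unevenly among the members. The highest count in a cell was 252, 276, 163 and 302 UMIs, and only 7, 77, 17 and 155 members (8.43%, 14.0%, 7.11% and 11.4%) had at least 10 UMIs. These members held 87.0%, 81.1%, 78.7% and 81.1% of the members' Cdkn1c UMIs. A further 2, 40, 8 and 43 cells with at least 10 UMIs did not meet the rule, so members held 60.8%, 67.3%, 44.6% and 77.6% of all Cdkn1c UMIs in cells. A high Cdkn1c level was therefore a property of a small group within the members. Npy was spread more evenly, with 10 to 49 UMIs in 19.3%, 31.6%, 20.9% and 40.4% of members.

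**Figure D3:**
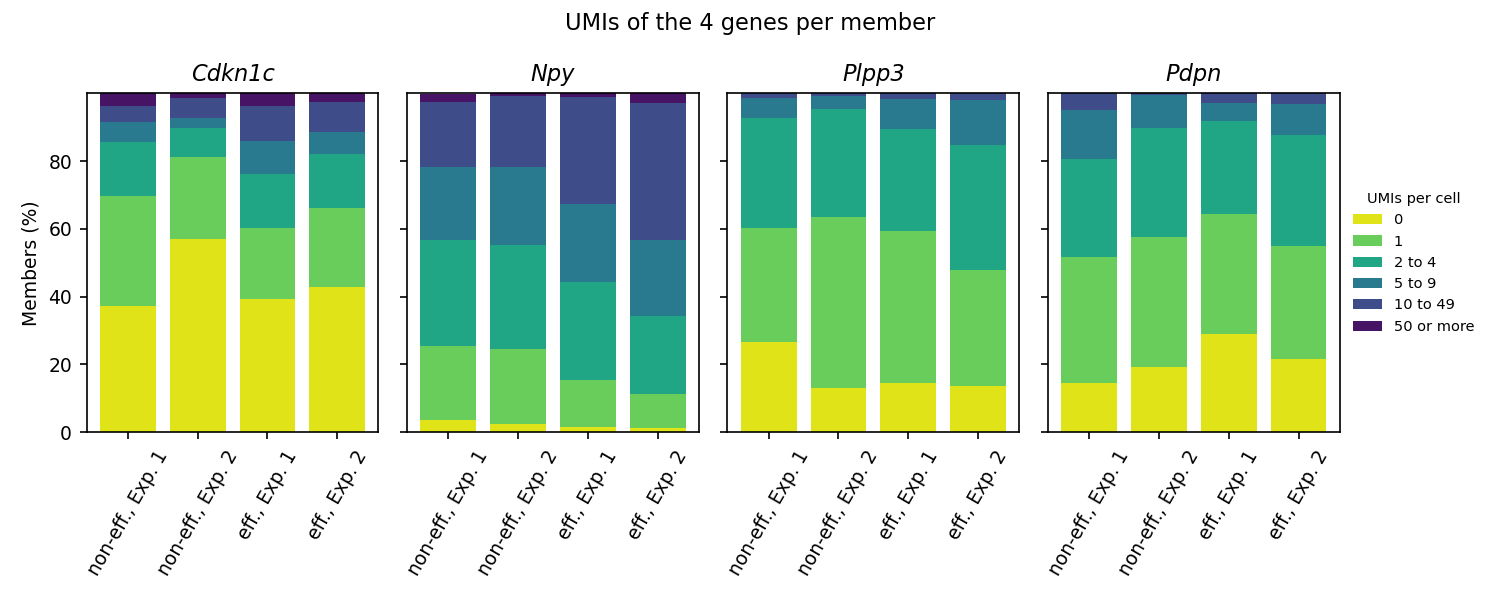
Percent of members with 0, 1, 2 to 4, 5 to 9, 10 to 49, or 50 or more UMIs of each of the 4 genes, stacked for each library. Cdkn1c has the largest share without a UMI (37.3% to 56.9%), while Npy is absent from few members. Both genes have members with 50 or more UMIs, with 2.57% for Cdkn1c and 2.87% for Npy in the efferocytic library of Exp. 2.

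The stacked plot shows how differently the 4 genes qualify a member. Plpp3 and Pdpn did so mostly by 1 to 4 UMIs. Npy had fewer than 10 UMIs in most members too, with 10 to 49 in 19.3% (N1) to 40.4% (E2).

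The label of macrophages was checked against marker genes. At least 3 of 13 macrophage markers were detected in 82 of 83, 549 of 550, 239 of 239 and 1360 of 1360 members. Their summed level was nevertheless lower in members, at 27511, 28009, 24085 and 22041 CPM against 41608, 34464, 36212 and 27763 CPM in remaining cells of equal depth. Osteoclast markers, which mark the bone-resorbing cells that M-CSF-dependent precursors can also form, summed to 949, 703, 1050 and 753 CPM against 369, 470, 422 and 393 CPM. Of the 7 of these markers that were tested, Ctsk and Atp6v0d2 were called higher in members at equal depth (edgeR, values with those genes) and 5 were not called. Without cells of other types, 6 were tested, and Itgb3, an integrin chain, was called higher as well (0.93, adjusted p = 0.044) and Nfatc1, a transcription factor of osteoclasts, lower (-0.31, adjusted p = 0.022). Nfatc1 had 13.4, 17.1, 17.6 and 19.4 CPM in members against 24.8, 20.6, 21.2 and 22.0 CPM. Calcr, Ocstamp and Oscar were too low to be tested, and 3, 3, 2 and 2 of 10 were at 0 in members. Neutrophil markers summed to 57.3, 269, 84.5 and 36.0 CPM in members against 3446, 2302, 5345 and 1396 CPM, and to 59.1, 46.8, 84.1 and 36.1 CPM against 66.2, 51.1, 104 and 44.0 CPM without cells of other types. Stromal markers summed to 1837, 66.7, 1209 and 65.4 CPM in members against 656, 377, 761 and 262 CPM, thus higher in N1 and N2 and lower in E1 and E2. In members they summed to 5.42, 3.97, 30.3 and 3.45 CPM without their 4, 2, 7 and 4 other-type cells. Members with UMIs for at least 5 stromal markers made up 4.82% of the members of N1 (exact 95% interval 1.33 to 11.9%) and 2.09% of those of N2 (0.683 to 4.81%). In E1 and E2 they made up 0.182% and 0.294%. The same barcodes held a median of 9.5, 8, 7 and 7 of the 13 macrophage markers, so transcripts of both kinds lay on them. Of 15 epithelial and carcinoma markers, 13, 14, 13 and 10 were at 0 in members, at a sum of at most 6.26 CPM.

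Away from the 4 genes, the elastase Mmp12, the lipid droplet protein Plin2 and the lysosomal protease Ctsl were higher in members than in remaining cells of equal depth. The complement gene C1qa, the lipid carrier Apoe, the MHC class II gene H2-Ab1 and the mitosis gene Ube2c were lower. UMI counts were summed over the members and over the remaining cells of each library and compared with edgeR (quasi-likelihood test, library as a block, Benjamini-Hochberg adjustment). Against all remaining cells, 2706 of 13529 genes were called at an adjusted p under 0.05, of which 1452 were higher (10.7%) and 1254 lower (9.27%). Scaled by library totals, the split was 1046 higher and 1508 lower. Against remaining cells of equal depth, 1586 of 11608 genes were called, or 13.7%, with 784 higher (6.75%) and 802 lower (6.91%). The calls rested on the pairing within libraries and on single libraries: without the block 332 and 72 genes were called, without N2 31 and 661, without N1 1395 against all remaining cells, and without E1 or E2 1056 or 623 at equal depth. Without cells of other types, 2071 of 11037 genes were called at equal depth, with 957 higher and 1114 lower. Of 1099 genes called in both comparisons in the same direction at a mean of 10 CPM or more, 605 were higher and 485 lower in all 4 libraries. Across 7031 genes, the log2 ratio of members to remaining cells of equal depth in Exp. 1 and that in Exp. 2 had a Pearson r of 0.776, given as a description, since genes are no independent replicates.

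The 10 genes that rose most at equal depth included proteases, a selenoenzyme and surface molecules. Dio2, the enzyme that activates thyroid hormone, had 19.7, 10.0, 4.39 and 8.40 CPM in members and 0, 1.48, 0.393 and 1.61 CPM in remaining cells, a log2 fold change of 2.87 ± 0.32 (SE, adjusted p = 0.0023). Eef1a2, a translation elongation factor of muscle and neurons, had 84.6, 11.8, 27.7 and 11.0 CPM against 3.82, 5.01, 2.75 and 1.02 CPM (2.75 ± 0.39, adjusted p = 0.0049, and 3.68 without E1). Cd200, a surface ligand that restrains myeloid cells, had 19.7, 7.78, 5.73 and 9.54 CPM against 1.43, 2.97, 1.77 and 1.42 CPM (2.21 ± 0.30, adjusted p = 0.0044). Without cells of other types its level in the members of N1 was 9.85 CPM, and the change over the 4 libraries was 2.63 ± 0.21 (adjusted p = 7.2e-06). These 3 genes were low, and their groups did not overlap, although the difference was wider in N1 than elsewhere for Eef1a2. The N1 values of Dio2 and Eef1a2 rested in good part on the 7 members with at least 10 Cdkn1c UMIs. Those had 132 and 355 CPM, and the other 72 members, without cells of other types, had 9.82 and 64.9 CPM. In N2, Eef1a2 had 137 CPM in the 17 members with at least 10 Cdkn1c UMIs and 18.7 CPM in the other 215.

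The proteases were far more abundant. Mmp12, the macrophage elastase, had 1433, 1020, 1371 and 967 CPM in members and 479, 370, 612 and 349 CPM in remaining cells of equal depth (log2 fold change 1.42 ± 0.07, adjusted p = 7.5e-05). Ctsk, the collagen-degrading cathepsin of osteoclasts, had 264, 132, 375 and 194 CPM against 35.8, 67.1, 54.0 and 64.2 CPM (1.95 ± 0.28, adjusted p = 0.0048). Every member value of both genes was above every value of the remaining cells, and Ctsk was further apart in the non-efferocytic libraries. Ifrd1, a transcriptional coregulator, had 114, 73.2, 140 and 75.4 CPM against 25.3, 30.8, 32.8 and 36.0 CPM (1.52 ± 0.16, adjusted p = 0.0018). Sdc1, the heparan sulfate proteoglycan syndecan-1, had 74.7, 65.0, 76.0 and 50.1 CPM against 40.1, 24.5, 35.2 and 15.2 CPM (1.40 ± 0.13, adjusted p = 0.0015). Il1rn, the secreted antagonist of the interleukin-1 receptor, had 39.8, 51.5, 24.6 and 55.3 CPM against 9.54, 19.98, 12.2 and 26.1 CPM (1.25 ± 0.09, adjusted p = 0.00032). Il1rn in the members of N2 was below the remaining cells of E2, so its groups overlapped across experiments but not within a library. The orphan receptor Gprc5b (1.41 ± 0.12) and the surface protein Slamf8 (1.40 ± 0.17) completed the 10. None of the 10 lost its call when 1 library was left out.

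By the same rule the 10 genes that fell most were Mpo, Elane, Ctsg, Ms4a3, Prtn3, S100a9, Ly6c2, Pglyrp1, Ngp and Camp. Of these, Mpo, Elane, Prtn3, S100a9, Ngp and Camp were among the neutrophil markers and Ly6c2 among the monocyte markers. Mpo, the granule peroxidase, had no UMI in the members of any library and 25.3, 10.6, 25.7 and 11.6 CPM in remaining cells of equal depth. S100a9 had 3.13, 87.0, 14.3 and 1.29 CPM against 1390, 866, 2284 and 519 CPM. Only 2, 14, 18 and 21 of the matched remaining cells were of other types. Without cells of other types, the log2 fold change of S100a9 was 0.24 (adjusted p = 0.46), that of Ngp 0.29 (adjusted p = 0.72) and that of Camp 0.059 (adjusted p = 0.94), and the other 7 did not pass the filter on low counts.

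Once cells of other types were left out, the genes that fell most were Hpgd, Ighm, Ccr2, Ms4a6b, Tgfbi, Tmem176b, Tmem176a, Ccdc152, H2-Ab1 and Cd74. Hpgd, the enzyme that inactivates prostaglandins, had 34.9, 12.5, 29.2 and 2.94 CPM in members and 102, 28.5, 63.2 and 8.18 CPM in remaining cells of equal depth (log2 fold change -1.30 ± 0.09, adjusted p = 0.00031, and -1.38 without cells of other types). Ighm, the constant region of IgM, had 12.98, 7.41, 18.5 and 4.31 CPM against 66.3, 16.5, 63.2 and 8.58 CPM (-1.45 ± 0.18, adjusted p = 0.0032). Both genes were lower in the members of each library, and the groups overlapped across libraries. Ccr2, the chemokine receptor of inflammatory monocytes, had 6.26, 2.86, 11.6 and 1.20 CPM against 20.5, 3.83, 29.1 and 4.99 CPM, and its change of -1.34 lost the call without N2 (-1.32, adjusted p = 0.065). Ms4a6b had 52.8, 41.5, 49.4 and 33.8 CPM against 176, 73.6, 138 and 69.8 CPM, with no overlap of the groups. Tgfbi, a matrix protein induced by TGF-β, had 24.6, 15.7, 40.6 and 36.2 CPM against 80.6, 29.3, 107 and 70.2 CPM. Tmem176b, a membrane protein of myeloid cells, had 9.36, 1.71, 13.4 and 0.919 CPM against 39.3, 6.74, 37.4 and 3.03 CPM without cells of other types (-1.72), and its neighbor Tmem176a changed by -1.51. In the fit with all cells both lost their call without E2 (-1.23, adjusted p = 0.063, and -1.16, adjusted p = 0.091). Ccdc152 changed by -1.35 and, of MHC class II, H2-Ab1 by -1.33 and Cd74 by -1.22.

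**Figure D4:**
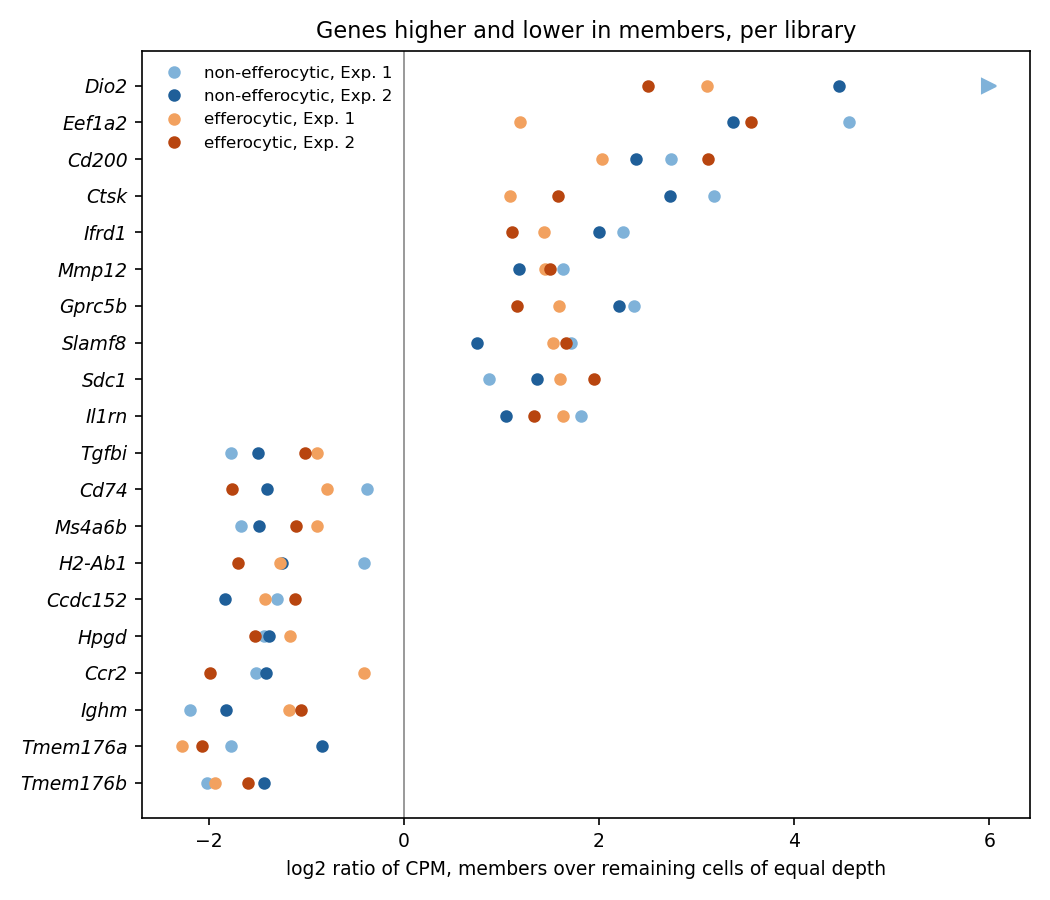
Log2 ratio of CPM in members to CPM in remaining cells of equal depth for the 10 genes with the largest rise and the 10 with the largest fall, cells of other types left out. Each point is 1 library, and the triangle marks Dio2 in the non-efferocytic library of Exp. 1, where the remaining cells had no UMI and the ratio is beyond the axis. All points of the rising genes lie right of 0 and all points of the falling genes left of 0.

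The plot of ratios shows that the 4 libraries took the same direction for each of these 20 genes, as the rule for naming them required, while the size differed, for example for Eef1a2 and Ctsk, which were both furthest apart in N1.

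Matrix breakdown and podoplanin partners were the lists closest to Pdpn. Of 20 matrix breakdown genes tested, 5 rose and 1 fell (median log2 fold change 0.12, against a median of -0.00 over all genes). Against all remaining cells 10 of the 20 rose and 1 fell, and without cells of other types 7 of 15 rose and 3 fell at equal depth. Over all genes, 6.75% were called higher and 6.91% lower at equal depth. Counts of 1 or 2 in the short lists below are therefore not read as a result for the list. Of 14 podoplanin partners and membrane linkers 2 rose and none fell (median 0.08). The risers were Rhoc, a small GTPase of cell motility, with 463, 300, 430 and 225 CPM against 220, 201, 247 and 154 CPM (0.72, adjusted p = 0.0016), and Cd9, a tetraspanin, with 1143, 1158, 1022 and 1012 CPM against 751, 935, 619 and 788 CPM (0.49, adjusted p = 0.0028). Of 15 genes that handle lysophospholipids, as Plpp3 does, 1 rose and 2 fell (median -0.25), and of 11 without cells of other types 2 rose and 2 fell (median 0.05). Enpp2, which makes lysophosphatidic acid, was among those that fell (-1.46), though not without E1 or E2 (adjusted p = 0.085 and 0.12), and the sphingosine 1-phosphate receptor S1pr2 rose (0.33), though not without N2 or E2 (adjusted p = 0.053 and 0.055). Of Npy's partners, 2 were high enough to be tested. The peptide-processing carboxypeptidase Cpe rose (0.50, adjusted p = 0.016, lost without E1, N2 or E2 at adjusted p = 0.10, 0.052 and 0.11) and the amidating enzyme Pam did not (0.06). Of 8 imprinted genes other than Cdkn1c, 1 rose and 2 fell (median -0.50), and of 4 without cells of other types 1 rose and 1 fell (median -0.05). Kcnq1ot1, the noncoding RNA of the Cdkn1c domain, was the riser (0.24, adjusted p = 0.043), and the call was lost without E1, N2 or E2 (adjusted p = 0.23, 0.058 and 0.36).

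Most listed genes of division were lower in members than in remaining cells of equal depth, and a part of Cdkn1c in this was not tested. Of 20 S phase and mitosis genes, none rose and 16 fell (median -0.82). The count depended on the cells compared, since against all remaining cells, which had fewer UMIs, 1 rose and 5 fell (median -0.21). Ube2c, which drives exit from mitosis, had 41.6, 27.9, 26.7 and 22.5 CPM against 74.4, 40.6, 77.6 and 50.8 CPM (-1.11, adjusted p = 0.0045). Birc5, the mitotic survival factor survivin, had 39.8, 20.5, 27.5 and 20.9 CPM against 57.7, 29.6, 50.1 and 50.3 CPM (-0.98, adjusted p = 0.0046), and did not pass against all remaining cells (-0.36, adjusted p = 0.18). At equal depth the fall was seen in each library for both genes, with overlap between libraries for Birc5 and Ube2c. Pcna, the replication clamp, did not pass the test, with 154, 134, 135 and 147 CPM against 94.0, 116, 111 and 149 CPM (0.24, adjusted p = 0.11). Of 15 other cell cycle inhibitors and G1 cyclins, none rose and 4 fell (median -0.49, and -0.30 with 6 of 14 lower without cells of other types), namely Ccnd1 (-0.72), Ccnd3 (-0.49), Cdkn2c (-0.50) and Cdkn2d (-0.49). Cdkn2c lost its call without N2 or E2 (adjusted p = 0.056 and 0.13) and Ccnd3 without E2 (adjusted p = 0.050). At 5000 UMIs per cell, a Mki67 UMI was seen in 7.41%, 5.10%, 2.12% and 3.85% of members and in 7.97%, 5.07%, 7.32% and 7.54% of remaining cells (14.5%, 14.5%, 7.95% and 13.5% against 14.3%, 12.8%, 10.9% and 15.9% unthinned). The share of cells with Mki67 was thus lower in members in Exp. 2 and close to equal in Exp. 1. A UMI of Top2a, the topoisomerase of dividing cells, was seen at 5000 UMIs in 1.23%, 3.28%, 4.24% and 3.70% of members and in 3.58%, 3.14%, 3.85% and 4.87% of remaining cells (10.8%, 11.5%, 6.69% and 11.7% against 6.01%, 7.73%, 5.92% and 10.8% unthinned). For Top2a the direction differed between libraries at 5000 UMIs, and members were above remaining cells in each library unthinned.

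Lipid and lysosome genes were more often higher than lower. Of 16 lipid-associated macrophage genes, 9 rose and 1 fell (median 0.21). Plin2, the coat protein of lipid droplets, had 2141, 2851, 2013 and 2426 CPM against 1096, 2081, 873 and 1662 CPM (0.78, adjusted p = 0.0032), and Gpnmb, a lysosomal glycoprotein, had 5986, 8217, 5854 and 8503 CPM against 4190, 6504, 3357 and 6514 CPM (0.50, adjusted p = 0.0023). Apoe, the lipid carrier, was the gene that fell, with 6135, 6961, 6412 and 5151 CPM against 14252, 10176, 12929 and 7574 CPM (-0.84, adjusted p = 0.0044). Apoe was thus below every library's remaining cells, whereas Plin2 and Gpnmb rose within each library on top of higher levels in efferocytic cells. Of 21 genes for lysosomal enzymes and the proton pump, 8 rose and 1 fell (median 0.14), and 8 rose and 4 fell without cells of other types. Ctsl, cathepsin L, which was counted in the matrix breakdown list, had 3382, 3530, 3248 and 4321 CPM against 1764, 2329, 1666 and 2490 CPM (0.80, adjusted p = 0.00018). Atp6v0d2, a pump subunit of macrophages and osteoclasts, had 632, 517, 600 and 510 CPM against 269, 342, 296 and 279 CPM (0.92, adjusted p = 0.0015). Both were higher in the members of every library than in the remaining cells of any. Of 17 LXR targets and cholesterol genes, 5 rose and 1 fell (median 0.05), among them Abcg1, a cholesterol exporter, with 191, 256, 287 and 220 CPM against 148, 217, 180 and 177 CPM (0.40).

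Most HIF targets did not pass the test, and those that did at equal depth were higher. Over all genes, 6.75% were called higher and 6.91% lower at equal depth. Of 17 HIF targets in glycolysis, 5 rose and none fell (median 0.06). The risers included the glucose transporter Slc2a1 (0.47), lost without E1 or E2 (adjusted p = 0.067 and 0.097), and Ldha (0.34, adjusted p = 0.025), lost without N2 (adjusted p = 0.093), while Gapdh (-0.06) and Pkm (0.06) did not pass. Of 20 other HIF targets, 4 rose and none fell (median 0.14), whereas 3 rose and 3 fell against all remaining cells. Hilpda, which blocks the breakdown of lipid droplets, had 64.9, 75.1, 67.2 and 69.2 CPM against 18.6, 34.9, 26.1 and 33.0 CPM (1.23, adjusted p = 0.00032). Its member values were nearly level across the libraries and all above the remaining cells. Bnip3l, a mitophagy receptor, had 306, 296, 312 and 267 CPM against 201, 238, 219 and 209 CPM (0.44, adjusted p = 0.0040). Mif, the cytokine that the study followed, did not pass the test (0.24, adjusted p = 0.094), and passed without cells of other types (0.25, adjusted p = 0.036). Arg1, the arginine-consuming enzyme, had 0.447, 13.5, 0 and 1.57 CPM against 0.954, 2.29, 0.196 and 0.341 CPM, and its call (2.27, adjusted p = 0.013) came from the efferocytic libraries and was lost without E2 (adjusted p = 0.055).

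Among engulfment genes the members were mixed, with 3 of 18 higher and 4 lower (median -0.06), 7 lower without cells of other types. Mfge8, a secreted bridge between phosphatidylserine and integrins, had 371, 328, 360 and 313 CPM against 131, 183, 164 and 152 CPM (1.06, adjusted p = 0.0016). Stab1, a scavenger receptor that binds phosphatidylserine, had 169, 146, 145 and 134 CPM against 462, 255, 331 and 237 CPM (-1.04, adjusted p = 0.0017). Neither gene's groups overlapped, and the genes moved in opposite directions. Axl (-0.58), a receptor tyrosine kinase, fell too, though not without E1, N2 or E2 (adjusted p = 0.081, 0.079 and 0.17). Pros1 fell as well (-0.57).

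Most macrophage markers and MHC class II genes were called lower. Of 13 macrophage markers, none rose and 10 fell (median -0.58), 12 without cells of other types. C1qa, of the first complement component, had 690, 557, 439 and 476 CPM against 1322, 942, 1021 and 768 CPM (-0.90, adjusted p = 0.0017), and Adgre1, which encodes F4/80, had 199, 266, 197 and 241 CPM against 436, 343, 399 and 339 CPM (-0.73, adjusted p = 0.012). The call for Adgre1, the gene of the protein used in the sort, was lost without N2 (-0.61, adjusted p = 0.056). Cd68, a lysosomal glycoprotein of macrophages, was above the remaining cells in each library but did not pass (0.14, adjusted p = 0.086). Of 8 MHC class II genes, none rose and 5 fell (median -0.89), and H2-Ab1 had 26.4, 2.25, 46.6 and 3.74 CPM against 42.9, 4.39, 110 and 12.7 CPM (-1.30 ± 0.14, adjusted p = 0.0020). Of 20 interferon response genes, none rose and 1 fell (median -0.18), where 6.91% of all genes were called lower. Without cells of other types 5 of them fell. Of 19 inflammatory genes, 1 rose and 6 fell (median -0.47, and -0.20 without cells of other types), and of 11 alternative activation genes, 3 rose and 4 fell (median -0.20), 3 and 5 without cells of other types (median 0.02). The checkpoint ligand Cd274 rose, with 26.4, 22.8, 28.2 and 22.9 CPM against 12.9, 15.3, 13.6 and 12.3 CPM (0.84, adjusted p = 0.0020).

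Stress genes of the ATF4 and NRF2 pathways were more often higher. Of 16 ATF4 targets, 5 rose and 1 fell (median 0.15), and of 15 without cells of other types 7 rose and none fell (median 0.37). Of 16 NRF2 targets, 6 rose and none fell (median 0.10). Ddit3, which encodes CHOP, had 120, 65.1, 150 and 53.0 CPM against 43.4, 47.5, 52.0 and 43.5 CPM (0.82, adjusted p = 0.025). It was clearly apart in the non-efferocytic libraries and less so in the efferocytic ones, and the call was lost without N1 or N2 (adjusted p = 0.064 and 0.092). Txnrd1, the cytosolic thioredoxin reductase, rose by 0.43 (adjusted p = 0.0044), and the amino acid transporter chain Slc3a2 by 0.60 (adjusted p = 0.0044).

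**Figure D5:**
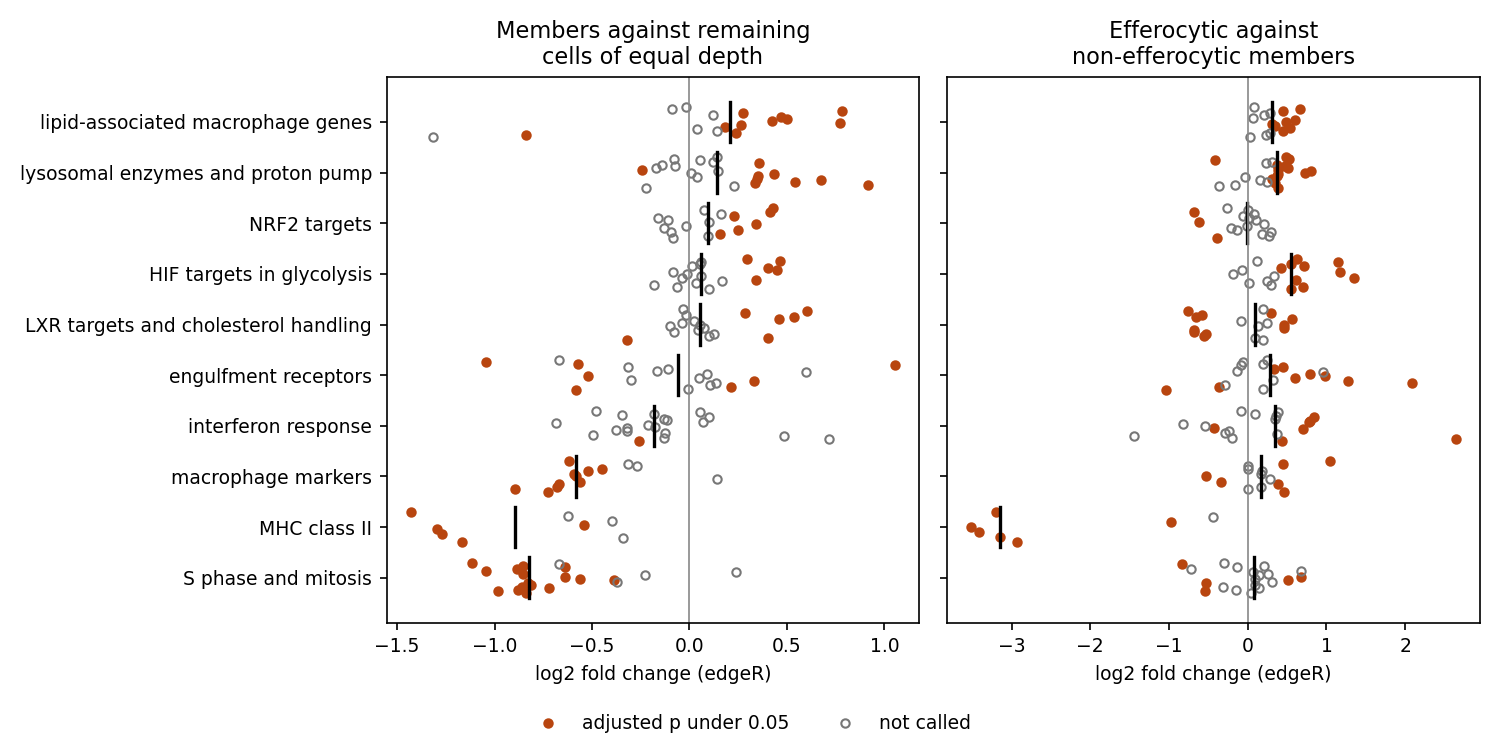
Log2 fold change of each tested gene in 10 gene lists, left for members against remaining cells of equal depth and right for efferocytic against non-efferocytic members (edgeR). Each point is 1 gene, filled where the adjusted p was under 0.05, and the bar is the list's median. On the left the medians of macrophage markers, MHC class II and S phase and mitosis lie at -0.58, -0.89 and -0.82, and on the right MHC class II lies at -3.15 and HIF targets in glycolysis at 0.54.

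The left panel of the plot of gene lists shows that 16 of 20 S phase and mitosis genes and 10 of 13 macrophage markers were called lower at equal depth. In contrast, 8 of 21 lysosomal genes and 9 of 16 lipid-associated genes rose, against 6.75% over all genes.

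The levels of 4 of these genes, chosen after their values were seen, also followed the number of the 4 rule genes detected. From 0 to 4 genes detected, Stab1 went from 731 to 117 CPM in N1, from 423 to 127 CPM in E1, from 577 to 74.6 CPM in N2 and from 426 to 107 CPM in E2. Mmp12 went from 180 to 2351 CPM in N1, from 194 to 1652 CPM in N2 and from 122 to 1205 CPM in E2, and in E1 from 233 to 1030 CPM at 3 genes and 978 CPM at 4. Cells with 1 or 2 of the genes lay between in each library for both genes. Apoe went from 18782 to 4048 CPM in N1, from 17801 to 4938 CPM in N2 and from 9761 to 4564 CPM in E2, and in E1 from 14609 to 6944 CPM at 3 genes and 7032 CPM at 4. Hpgd went from 208 to 19.1 CPM in N1, from 57.0 to 9.03 CPM in E1 and from 25.2 to 2.36 CPM in E2, and in N2 from 129 to 29.1 CPM at 3 genes and 30.2 CPM at 4. The last step was thus not in the same direction for Mmp12 and Apoe in E1 and for Hpgd in N2. The mitosis gene Ube2c did not follow the number in each library, with 70.3, 77.2, 81.8, 44.4 and 27.2 CPM from 0 to 4 genes in N1 and 27.0, 42.1, 25.6, 25.3 and 39.0 CPM in E1. In N2 it rose from 64.8 to 76.5 CPM at 1 gene and then fell to 5.33 CPM at 4. In E2 it fell at each step, from 49.5 to 20.6 CPM. Other risers turned at the last step in some libraries, as Ctsk did in N1 (292 to 123 CPM) and Mfge8 in N2 (373 to 252 CPM). The median number of UMIs per cell rose along the same steps, from 9977 to 27879.5 at 3 genes and 23077 at 4 in N1 and from 12629.5 to 27636 in E2, and its part in the gradient was not tested.

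Efferocytic members were compared with non-efferocytic members to ask how engulfment goes with the state of these cells (edgeR, experiment as a block). The phosphatidylserine receptor Cd300lf, the scavenger receptor Cd36 and the glycolytic enzyme Gapdh were higher in efferocytic members, and the MHC class II genes H2-Ab1 and Cd74 were lower. Of 10950 genes, 1715 were called, or 15.7%, with 854 higher (7.80%) and 861 lower (7.86%). Scaled by library totals, the split was 337 higher and 829 lower. Without the block 704 genes were called, without cells of other types 932 (530 higher and 402 lower), with DESeq2 468, and without N1, E1, N2 or E2 335, 865, 229 or 716. The count thus depended strongly on each library, and N1 rested on 83 members. Adjusted p-values in this comparison rest almost wholly on a spread pooled over genes, so their size is no measure of agreement between libraries.

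The 8 genes that rose most were Cd300lf, Pf4, Dusp6, Mcoln3, Cd33, Mmp27, Myo7a and 1810011H11Rik. Cd300lf, a receptor for phosphatidylserine and ceramide, had 7.16, 27.5, 6.68 and 27.1 CPM (log2 fold change 2.09 ± 0.21, adjusted p = 1.7e-21). Pf4, the chemokine platelet factor 4, had 114, 397, 59.0 and 221 CPM (1.96 ± 0.12, adjusted p = 1.7e-56), but without N2 it was not called (1.55, adjusted p = 0.12). Mcoln3, a cation channel of endosomes and lysosomes, had 6.26, 28.2, 15.5 and 46.4 CPM (1.83 ± 0.18), lost without N1 (1.39, adjusted p = 0.051). The groups of Cd300lf, Pf4 and Mcoln3 did not overlap. Cd33, an inhibitory sialic acid receptor, had 12.5, 19.3, 7.82 and 40.9 CPM (1.82 ± 0.20) and was not called without N1 (adjusted p = 0.058) or without N2 (adjusted p = 0.28). Dusp6, a phosphatase that acts on ERK, had 6.26, 18.7, 6.30 and 22.4 CPM (1.84 ± 0.22), and Mmp27 had 5.37, 18.5, 7.06 and 20.6 CPM (1.71 ± 0.22). Myo7a (1.63 ± 0.19) and 1810011H11Rik (1.58 ± 0.18) rose in both experiments as well.

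By the same rule the 8 genes that fell most were Tagln, Ctgf, Lox, Loxl1, Myl9, Acta2, Col1a1 and S100a16, of which Tagln, Acta2 and Col1a1 were among the stromal markers. Col1a1, a collagen chain, had 517, 18.3, 220 and 8.00 CPM, and 59.1% to 100% of the members' UMIs of these 8 genes in a library came from its 2 to 7 other-type members.

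With those cells left out, the genes that fell most were led by MHC class II. H2-Ab1 had 26.4, 2.25, 46.6 and 3.74 CPM (-3.51 ± 0.21, adjusted p = 3.2e-62, and -3.64 without cells of other types). Cd74, the invariant chain, had 135, 16.6, 193 and 23.3 CPM (-2.93 ± 0.12, adjusted p = 2.1e-116, and -3.03). Both efferocytic libraries were far below both non-efferocytic libraries. The others were H2-Aa (-3.53), H2-Eb1 (-3.32), Hpgd (-2.25), Eef1a2 (-2.10), the matrix protein Thbs1 (-2.08) and the epoxide hydrolase Ephx1 (-2.01). With all cells, the call was lost without N2 for H2-Eb1 (-2.03, adjusted p = 0.10) and Ephx1 (-1.88, adjusted p = 0.075), and without N1 or N2 for Hpgd (adjusted p = 0.21 and 0.25). Eef1a2, which marked members against remaining cells, was thus itself higher in non-efferocytic members, at 84.6 and 27.7 CPM against 11.8 and 11.0 CPM. Its change moved from -1.96 to -1.16 without N1 and to -2.80 without N2. The log2 ratio of its CPM was -2.84 in Exp. 1 and -1.33 in Exp. 2, further apart than its SE of 0.16 in the fit with all cells.

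Of 17 HIF targets in glycolysis, 10 rose and none fell in efferocytic members (median 0.54, against 0.00 over all genes). Gapdh had 953, 1254, 810 and 1422 CPM (0.71, adjusted p = 1.3e-08), and Ldha had 421, 526, 325 and 528 CPM (0.61, adjusted p = 9.3e-07). Both were higher in each efferocytic library, but neither was called without N2 (0.58, adjusted p = 0.19, and 0.42, adjusted p = 0.31). The lactate exporter Slc16a3 (1.14) and the kinase Pdk1 (1.35), which holds pyruvate back from the mitochondria, rose with 10.3, 20.4, 11.1 and 23.5 CPM and 8.50, 15.3, 6.11 and 17.5 CPM. Of 19 other HIF targets, 7 rose and 1 fell (median 0.41). Mif had 352, 464, 284 and 474 CPM (0.67, adjusted p = 6.0e-08). Its efferocytic values were above both non-efferocytic values.

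Of 21 lysosomal genes 13 rose and 1 fell (median 0.38), and without cells of other types 5 rose and 1 fell. Gusb, a lysosomal glycosidase, had 327, 511, 302 and 508 CPM (0.80). Of 15 lipid-associated genes 8 rose and none fell (median 0.31), 3 without cells of other types. Gpnmb rose by 0.60, and was not called without N1 or N2 (adjusted p = 0.16 and 0.22). Fewer genes of both lists were thus called without those cells, as were fewer over all genes, with 530 of 10650 higher against 854 of 10950. Of 18 engulfment genes 7 rose and 2 fell (median 0.29), 5 and 2 without cells of other types, led after Cd300lf by Cd36, a scavenger receptor for oxidized lipid, with 777, 1729, 805 and 1850 CPM (1.28). Mfge8 (-0.09), Stab1 (-0.06), Apoe (0.03) and Hilpda (0.22), which set members apart from remaining cells, did not pass between efferocytic and non-efferocytic members.

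Those ATF4 and NRF2 targets that passed the test were lower. Of 15 ATF4 targets, none rose and 6 fell (median -0.51), among them Ddit3 (-1.12, not called without N2 at adjusted p = 0.068) and the pseudokinase Trib3 (-1.33). Of 16 NRF2 targets, none rose and 3 fell (median -0.00). Cdkn1a, the kinase inhibitor induced by p53, had 320, 135, 278 and 93.1 CPM (-1.31, adjusted p = 2.5e-29), with no overlap between the groups. Of 20 S phase and mitosis genes 2 rose and 3 fell (median 0.08), whereas without cells of other types 4 rose and none fell (median 0.46). Of 7 MHC class II genes 6 fell (median -3.15). Of 19 interferon response genes 6 rose and 1 fell (median 0.34), 4 and none without cells of other types. Of 16 inflammatory genes 5 rose and 7 fell (median 0.30), and of 15 without those cells 5 rose and 4 fell.

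Whether members stood apart from remaining cells of equal depth to a different degree in the efferocytic and the non-efferocytic libraries was tested as an interaction (edgeR, library as a block). Of 11608 genes, 468 were called, or 4.03% (241 with a higher contrast in the efferocytic libraries and 227 with a lower one). Scaled by library totals, the split was 119 and 370. Without the block 29 genes were called, without cells of other types 310, with DESeq2 184, and without N1 or E1 895 or 239. Ctsk and Ifrd1, which rose in members, did so less in the efferocytic libraries (-1.44 ± 0.19, adjusted p = 0.00072, and -0.87 ± 0.12, adjusted p = 0.0011). The fall of macrophage markers was also weaker there, with 11 of 13 markers called as higher in the interaction (median 0.39, against 0.02 over all genes). Apoe is an example, with a difference of 0.62 ± 0.04 (adjusted p = 1.9e-06). Rsad2, an antiviral enzyme induced by interferon, had 29.1, 38.1, 9.92 and 21.2 CPM in members and 47.2, 29.1, 19.4 and 15.2 CPM in remaining cells of equal depth, so that it was lower in the non-efferocytic and higher in the efferocytic members (1.28 ± 0.17, adjusted p = 0.00094). Cmpk2, its genomic neighbor, had 8.95, 13.2, 3.63 and 8.23 CPM against 24.3, 13.6, 8.84 and 7.47 CPM (1.46 ± 0.26, adjusted p = 0.0067). Saa3, S100a8 and Slpi were the other genes with the largest higher contrasts, and Col1a1, Pcolce, Ctgf, Sparc and Timp1 those with the largest lower contrasts, among genes at a mean of at least 10 CPM over members and remaining cells. Of these 8, S100a8, Slpi, Col1a1, Pcolce, Sparc and Timp1 were not called without cells of other types, and Ctgf was then not tested. Saa3 turned from 3.65 to -1.94 without N2, whose remaining cells alone held 102 CPM.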

How the data were processed

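Single-cell RNA-Seq libraries (10x Genomics 3′, v3.1 chemistry) of 4 samples were analysed, 2 efferocytic and 2 non-efferocytic. Alignment was to mm10 in Cell Ranger 3.0.0, per the labels, and the values that the authors deposited are unnormalized UMI counts of every gene in every barcode, with each library on its own. The file headers name Cell Ranger 3.0.0 in Exp. 1 and 3.1.0 in Exp. 2, so the experiment and the version cannot be told apart. Seurat 3.1, which the authors used later, left no values in these files. The authors' cell filter (200 genes and 1000 UMIs upward, mitochondrial UMIs 10% or less) was applied to each library. It left more cells in every library than the study states, most so in N2, so the cell sets differ.

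The members, the gene lists and the rule for named genes were chosen with earlier results of these data known. Members had at least 1 UMI of at least 3 of Cdkn1c, Npy, Plpp3 and Pdpn. Doublets were left in and removed as an alternative (simulated doublets, 0.8% per 1000 cells). For the equal-depth comparison, each member was set against 1 remaining cell of its library with total UMIs within 5%, which left 2, 3, 3 and 47 members unmatched. UMI counts summed per class and library were tested with edgeR 4.0.16 (TMM scaling, filterByExpr, quasi-likelihood, Benjamini-Hochberg adjustment, threshold 0.05) in R 4.3.3, with the library as a block, or the experiment as a block between efferocytic and non-efferocytic members. CPM are UMIs per 1000000 UMIs of the same cells. Experiment numbers in the labels paired the libraries, and the deviations of N1 and E1 from their group means correlated at 0.360 across 7050 genes. The matched cells are not independent of the number of UMIs, and a library of 83 members measures rare transcripts poorly.

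Named genes were the 10 largest rises and 10 largest falls at equal depth among genes called in the same direction in both comparisons, at a mean of at least 10 CPM and in the same direction in all 4 libraries. Between efferocytic and non-efferocytic members they were the 8 largest in each direction, and for the interaction the 5 largest. The same rule was repeated without cells that had UMIs for at least 5 markers of another cell type, a setting chosen after seeing the data. Genes named in gene lists are examples from the lists. Alternatives were other scalings, no filter on low counts, DESeq2 1.42.0, no block, other thresholds of the rule, thinning to 5000 UMIs, UMIs within 1%, no doublets, no shared barcodes and leaving out each library. Limma 3.58.1, Python 3.11.15, numpy 2.4.6, scipy 1.17.1 and scikit-learn 1.9.0 were used. The scripts were tested on simulated data. Gene positions are from GENCODE and promoters from RefSeq (GRCm38.p6), where Cdkn1c had no entry.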

Additional observations from a re-analysis of the deposited data

Results flagged for a closer look

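For the named and listed genes given here, the contrast between members and remaining cells of equal depth differed between the efferocytic and the non-efferocytic libraries (edgeR interaction, adjusted p under 0.05). Each value below is that difference in log2, efferocytic contrast minus non-efferocytic contrast. The lowest values included 4 stromal markers (Col1a1, Sparc, Acta2 and Tagln), with Loxl1 at -3.98, Col1a1 at -3.87, Pcolce at -3.76, Ctgf at -3.73, Sparc at -3.66, Timp1 at -3.66, S100a16 at -3.62, Lox at -3.54, Myl9 at -3.29, Acta2 at -2.99 and Tagln at -2.85. None of these 11 was called without the cells of other types, where 3 of them were not tested and Timp1, Lox and Tagln stood at 0.65, 1.02 and 0.71. The imprinted adaptor Grb10 was at -2.10, Tmem176a at -2.01, Tmem176b at -1.88 and the growth factor Csf1 at -1.80. Tmem176a, Tmem176b and Csf1 were not called without those cells, with Csf1 at 0.19, and Grb10 was not tested. Thbs1 was at -1.32 and turned to 1.33 without those cells (adjusted p = 0.018).

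A second group of genes also had a lower contrast in the efferocytic libraries, and these genes kept their call without cells of other types. Among them were Ctsk at -1.44 and the retinol dehydrogenase Rdh13 at -1.20. The histone genes Hist1h2ap, at -1.39, and Hist1h2ae, at -1.15, were higher in members than in remaining cells in N1 and N2 and lower in E1 and E2. Of the stress and lipid genes, Ddit3 was at -1.02, Fabp4 at -0.98, Ifrd1 at -0.87, Plin2 at -0.50 and Slc3a2 at -0.37. Smaller values were seen for Atp6v1h (-0.43), Mif (-0.37), Pgam1 (-0.34) and Cd9 (-0.23).

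The other genes given here had positive values. Of macrophage and engulfment genes, C1qb was at 0.30, C1qc at 0.32, C1qa at 0.39, Stab1 at 0.52, Apoe at 0.62, Pros1 at 0.69, Adgre1 at 0.70 and Siglec1 at 1.12. C1qb was not called without cells of other types (adjusted p = 0.063), nor were Fth1, at 0.20, and Npc2, at 0.20. Tgfbi was at 0.56, the chemokine Ccl6 at 0.63, Sdc1 at 0.64, Ms4a6b at 0.68, Ighm at 0.88 and Pf4 at 0.99. The interferon-induced genes Rsad2 and Cmpk2 were at 1.28 and 1.46. Slpi at 1.49 and S100a8 at 2.11 were not called without cells of other types. Saa3 was at 3.65 and rested on N2.

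In barcodes of at most 100 UMIs, which hold free RNA and no cell, Cdkn1c stood at 136 CPM in N1 and 158 CPM in E1, above its level over all cells (11.8 and 45.3 CPM). In N2 and E2 it stood at 9.60 and 40.3 CPM, below its level over all cells (11.7 and 65.1 CPM).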

How the results depend on the processing

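Between members and all remaining cells, 332 genes were called without the replicate block and 864 where all 4 genes had to be detected, and leaving out 1 library gave 31 to 2174. At equal depth these counts were 72, 331 and 623 to 1295, and 860 genes were called where the rule was applied to thinned cells. Other settings at equal depth (DESeq2, other scalings, no filter, UMIs within 1%, no doublets, no shared barcodes) gave 1431 to 1860. Between efferocytic and non-efferocytic members the counts were 704 without the replicate block, 468 with DESeq2, 60 with all 4 genes, 167 on thinned cells, 932 without cells of other types and 229 to 865 with 1 library left out. For the interaction they were 29 without the replicate block, 184 with DESeq2, 197 with no filter, 310 without cells of other types and 239 to 895 with 1 library left out. Where 1 library of a group was left out, the lone library was assumed to vary like the others. Between efferocytic and non-efferocytic members, the fits with 1 library left out also had no block.

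The share of members in N1, E1, N2 and E2 was 0.223%, 1.50%, 0.390% and 3.80% after thinning, 0.181%, 1.30%, 0.149% and 3.41% with all 4 genes, and 4.81%, 26.5%, 7.73% and 43.0% with at least 2. Among cells of 20000 to 30000 UMIs it moved to 4.20% in N1, 8.40% in N2 and 23.4% in E2, and among cells of at least 5000 UMIs to 2.36% in N2. The efferocytic library of an experiment was the higher under each of these settings. At equal depth, the log2 ratio in cells chosen by the other genes moved to 1.59 for Npy and 1.76 for Plpp3 in N1, to 0.96 for Npy in E1, to 1.77 for Npy and 1.58 for Plpp3 in N2, and to 1.82 for Cdkn1c and 0.90 for Npy in E2. Without doublets it was 2.40 for Cdkn1c, 1.28 for Npy and 1.59 for Pdpn in E1. Members made up 10.7% to 11.4%, 25.9% to 28.2%, 18.3% to 19.2% and 37.2% to 40.9% of the neighbors of a member across all settings.

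Of the 96 named or listed genes called at equal depth, 969 of 1127 values under other settings kept direction and call, 152 lost the call and 6 reversed, and with 1 library left out 314 of 383 kept both. The reversals were, without cells of other types, Camp (0.059), Ccl7 (0.23), Chil3 (0.11), Ngp (0.29) and S100a9 (0.24), and, with all 4 genes, Cpe (-0.16). Between efferocytic and non-efferocytic members, 351 of 411 values kept direction and call. With 1 library left out, 115 of 160 did, 43 lost the call and 2 reversed, where Ccnd1 ran from -0.052 (without E2) to 1.16 and Fabp4 from -0.030 (without E1) to 0.61, and on thinned cells Gla was at -0.0069. In the interaction, 75 of 111 kept both (55 of 64 with 1 library left out), and Saa3 ran from -1.94 (without N2) to 4.16 with 1 library left out, and Thbs1 (1.33, adjusted p = 0.018) and Timp1 (0.65) reversed without cells of other types, as did Lox (1.02), Tagln (0.71) and Csf1 (0.19). The cause of these changes was not tested, other than the cells left out. Depth limits the statements on rare transcripts of N1, which had 83 members.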

Other observations

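The members with at least 10 Cdkn1c UMIs differed from the other members in genes that were picked after their values were seen. They are set here against members with fewer than 10 Cdkn1c UMIs, both without cells of other types, and no test was made. Mfge8, the bridge to phosphatidylserine, had 756, 625, 864 and 709 CPM in members with at least 10 Cdkn1c UMIs and 336, 276, 320 and 251 CPM in the others. Gadd45g, a growth arrest gene, had 91.3, 106, 144 and 96.0 CPM against 56.2, 49.8, 45.7 and 35.9 CPM. Both were higher in each library.

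The sum of the S phase and mitosis genes was 304, 337, 297 and 364 CPM against 497, 508, 461 and 514 CPM. Mki67, the proliferation marker, had 0, 4.76, 0 and 9.77 CPM against 10.4, 16.5, 11.0 and 18.0 CPM, and the chemokine gene Ccl7 had 0, 3.17, 0 and 8.71 CPM against 55.7, 30.3, 0.879 and 13.2 CPM. The median depth was 28245, 29891, 22446 and 29574.5 UMIs against 25373.5, 27313, 19849 and 23297.5 UMIs. In N1 and N2 the values rest on 7 and 17 members.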
